A study of Homo sapiens with 12 samples.

Results

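Janus kinases and STAT factors carry cytokine signals from the cell surface to genes in the nucleus. Here 9 genes of the families, the kinases JAK1, JAK2 and TYK2 and the factors STAT2, STAT3, STAT4, STAT5A, STAT5B and STAT6, were followed by name in a table of 38478 genes measured in OPM-1 cells, a line from human multiple myeloma. The cells had been kept for 48 h in 1 of 4 conditions: the solvent DMSO; 0.1 μM lenalidomide (LEN), which directs the cereblon ubiquitin ligase to the Ikaros factors IKZF1 and IKZF3; 1 μM AI-10-104 (RUNXi), which keeps RUNX factors from their partner CBFβ; or both drugs at the same doses (LEN+RUNXi). Each condition had 3 biological replicates, 12 samples in all, from which polyadenylated RNA was sequenced, and all of them are 1 cell line, so they speak for no other myeloma. The study asked how lenalidomide and RUNX inhibition act on gene expression alone and together, and the same question is put here to the genes that carry cytokine signals.

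The kinases sit on the inner tails of cytokine receptors. When a cytokine draws receptor chains together, the kinases phosphorylate each other, the receptor and the STAT factors docked on it, and phosphorylated STATs pair and enter the nucleus. JAK1 serves most of these receptors, TYK2 and JAK1 stand on the type I interferon receptor, and JAK2 serves among others the erythropoietin and interferon-γ receptors. STAT2 works with IRF9 in the interferon-activated complex ISGF3. STAT3 answers to interleukin-6, a growth and survival factor of plasma cells, STAT4 to interleukin-12, STAT5A and STAT5B to interleukin-2 and related cytokines, and STAT6 to interleukin-4 and interleukin-13. Activity of the pathway lies in phosphorylation, which RNA levels do not show.

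The values are RPKM, reads per kilobase of gene length and per 1000000 reads counted on genes. Between 16352548 and 31386210 reads per sample fell on genes, and the median library of DMSO held 30219883, that of LEN 28795905, that of RUNXi 23153105 and that of LEN+RUNXi 19417027, so that the combination had the shallowest libraries. The 8 plasma cell markers had means from 22.9 RPKM (SLAMF7) to 523 RPKM (XBP1), and 18 markers of B, T and NK, myeloid, stromal and epithelial cells together reached 0.318 to 0.904 RPKM per sample, 7 of them without a read in any sample. The reads of each pair of replicates were compared by their chi-square per degree of freedom, which lay between 1.88 and 9.64. RUNXi replicate 2 was farthest from its group, at 7.40 and 9.64 from replicates 1 and 3, against 2.82 between these. LEN+RUNXi replicate 3 was at 5.10 and 5.69 from replicates 1 and 2, against 1.88 between these, and DMSO replicates 1 and 3 were 6.52 apart. Results that turn on 1 of these libraries are given with and without it. In a bulk sample, fewer cells that express a gene and less RNA per cell cannot be told apart.

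Promoters are shown for STAT2, STAT4 and JAK2, the members whose level passed the test against DMSO with all samples in a fit given below. Each is a RefSeq window on GRCh38.p14 from 250 bases before to 50 bases after a transcription start, read along the gene's strand, and the window nearest to the annotated gene start was taken. Capitals mark matches, on either strand, to the letters searched: TTCNNNGAA (the GAS element of STAT factors), the core of the ISRE (the element of ISGF3), TGTGGT and TGCGGT (RUNX) and TGGGAA (the core letters of the Ikaros family). STAT2, on the minus strand at chr12:56360058-56360357, held TGTGGT starting 236 bases before the transcription start and TGGGAA starting 165 and 121 bases before it. STAT4, on the minus strand at chr2:191151547-191151846, held TGGGAA starting 187 bases before the start. JAK2, on the plus strand at chr9:4984140-4984439, held none of the 5 motifs in this window.
STAT2: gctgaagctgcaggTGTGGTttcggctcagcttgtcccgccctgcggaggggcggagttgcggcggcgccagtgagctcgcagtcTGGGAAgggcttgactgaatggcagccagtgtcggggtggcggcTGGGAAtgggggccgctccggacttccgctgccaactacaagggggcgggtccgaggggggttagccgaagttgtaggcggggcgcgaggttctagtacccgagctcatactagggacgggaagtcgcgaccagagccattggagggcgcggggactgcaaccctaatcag
STAT4: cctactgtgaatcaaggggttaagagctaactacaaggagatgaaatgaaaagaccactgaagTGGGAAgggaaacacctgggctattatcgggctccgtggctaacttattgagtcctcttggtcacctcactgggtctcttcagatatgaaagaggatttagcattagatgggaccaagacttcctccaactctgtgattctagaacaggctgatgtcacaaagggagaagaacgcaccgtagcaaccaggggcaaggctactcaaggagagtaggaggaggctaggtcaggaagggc
JAK2: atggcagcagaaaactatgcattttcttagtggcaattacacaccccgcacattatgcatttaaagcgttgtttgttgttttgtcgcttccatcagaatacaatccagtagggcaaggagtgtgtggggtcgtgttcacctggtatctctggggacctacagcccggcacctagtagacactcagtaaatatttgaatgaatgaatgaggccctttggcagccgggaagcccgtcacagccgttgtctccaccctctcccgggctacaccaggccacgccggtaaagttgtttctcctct

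Such matches are common. Of all 35116 promoter windows of this length, 7.66% held the GAS letters, 3.57% the ISRE core, 13.1% TGTGGT, 7.29% TGCGGT and 24.0% TGGGAA, and no match of this list overlapped another in the windows shown. All 9 members had at least 1 window, 17 in all. The windows not nearest to the gene start held 1 TGGGAA for JAK2 (chr9:5041282-5041581), 1 for STAT4 (chr2:191150945-191151244) and no other match. In the window nearest to the gene start, STAT6 held 1 TGTGGT, STAT3 held 1 TGCGGT, STAT5A held 1 TGGGAA, and JAK1, TYK2 and STAT5B held none of the 5. For STAT6 (chr12:57110240-57110539) and STAT5B (chr17:42276342-42276641) the nearest window did not reach the annotated gene start, at 57132139 and 42288633. A match describes letters in the window and is not a site shown to be bound.

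The members differed in level far more than the drugs moved them. In DMSO the highest was JAK1 (chr1:64833223-65067754, minus strand) at 28.8 ± 0.708 RPKM (SD, n = 3 here and below), followed by TYK2 (chr19:10350533-10380608, minus strand) at 22.4 ± 0.335 RPKM. JAK2 (chr9:4984390-5129948, plus strand) was the lowest kinase of the 3, at 2.21 ± 0.0476 RPKM. Among the factors STAT3 (chr17:42313324-42388540, minus strand) led with 14.9 ± 1.17 RPKM. STAT5B (chr17:42199176-42288633, minus strand) was at 9.51 ± 0.286 RPKM, STAT6 (chr12:57095408-57132139, minus strand) at 9.11 ± 1.14 RPKM and STAT2 (chr12:56341597-56360203, minus strand) at 8.18 ± 0.108 RPKM, and the ranges of STAT6 overlapped those of both STAT5B and STAT2. STAT4 (chr2:191029576-191151596, minus strand) was at 0.275 ± 0.0195 RPKM. STAT5A (chr17:42287547-42311943, plus strand) had no read in DMSO. Gene spans are those of GENCODE 44 on GRCh38.

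**Figure D1:**
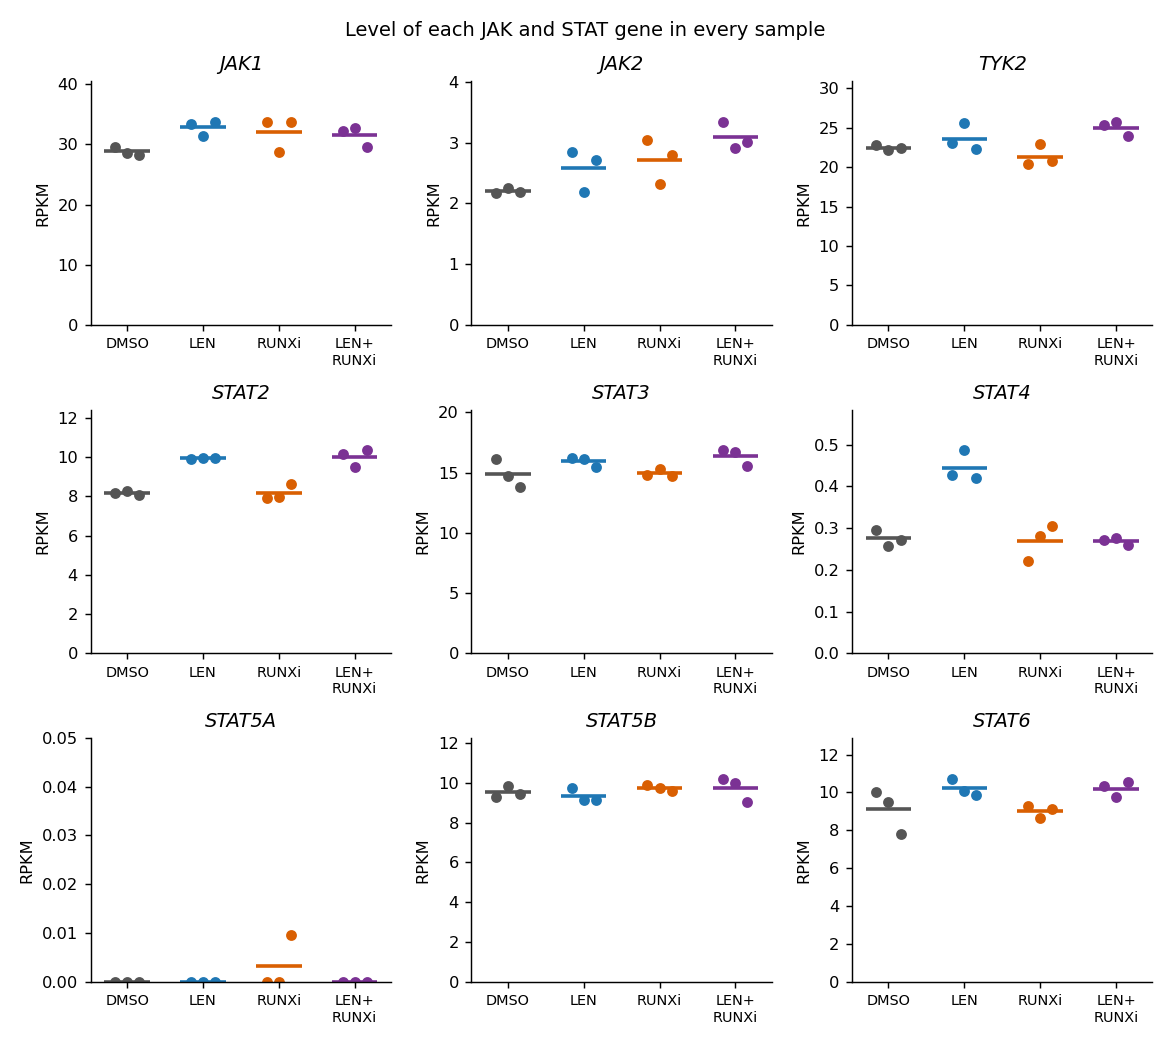
RPKM of each of the 9 JAK and STAT genes in every sample, 1 panel per gene with an axis that starts at 0; points are the 3 replicates of each condition in the order 1, 2, 3 and lines are their means. STAT2 sits near 10 RPKM in all 6 samples that received lenalidomide and near 8 RPKM in the other 6, STAT4 is high in LEN alone, and STAT5A has a single read in 1 sample.

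Of the 9 members, 7 had a mean of at least 0.5 RPKM and were tested with limma on log2(RPKM + 0.1), together with all 11241 genes over that level. A gene passed at an adjusted p of at most 0.05 (Benjamini-Hochberg over the 11241 genes). Against DMSO, 1 of the 7 was higher in LEN, where 1.13% of all genes tested passed in either direction. None of the 7 passed in RUNXi (4.55% of all genes), and 2 were higher in LEN+RUNXi (8.64% of all genes). No member was lower in any of these comparisons, which share their DMSO samples. The members' median log2 fold change was 0.17 in LEN, 0.01 in RUNXi and 0.16 in LEN+RUNXi, beside medians of -0.00, 0.01 and 0.02 over all genes tested. With a minimum absolute log2 fold change of 0.32 added to the rule, the share of genes passing was 0.649% in LEN, 1.77% in RUNXi and 2.94% in LEN+RUNXi, and of the members JAK2 alone passed, in LEN+RUNXi. Without LEN+RUNXi replicate 3, STAT2 (0.26, adjusted p = 0.0119) was the single member higher in LEN+RUNXi than in DMSO, with JAK2 at 0.48 and an adjusted p of 0.0502.

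STAT2, which joins IRF9 in the interferon-activated complex, rose with lenalidomide whether or not the RUNX inhibitor was present. It was at 8.17, 8.29 and 8.08 RPKM in DMSO replicates 1, 2 and 3 and at 9.93, 9.97 and 9.95 RPKM in the LEN replicates. RUNXi replicates were at 7.92, 7.99 and 8.64 RPKM and LEN+RUNXi replicates at 10.1, 9.52 and 10.4 RPKM. Every sample with lenalidomide was above every sample without it. The log2 fold change was 0.28 ± 0.04 (SE) in LEN, with an adjusted p of 0.0101 in limma, and 0.29 ± 0.04 in LEN+RUNXi, with an adjusted p of 0.00252.

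No change of STAT2 with the RUNX inhibitor was detected. RUNXi differed from DMSO by -0.00 on the log2 scale (95% interval -0.10 to 0.10), and LEN+RUNXi differed from LEN by 0.01 (95% interval -0.09 to 0.10), a comparison in which 0 of the 7 members and 4.62% of all genes passed. LEN+RUNXi was above RUNXi by 0.29, with an adjusted p of 0.00360, where 15.0% of all genes passed, and RUNXi was below LEN by 0.28 (log2 fold change -0.28, adjusted p = 0.00183 in limma), where 13.8% of all genes passed. The effect of lenalidomide with RUNXi minus that without it was 0.01 (95% interval -0.13 to 0.14). In order of level, DMSO and RUNXi did not differ beyond their spread, nor did LEN and LEN+RUNXi. The call against DMSO in LEN was lost without LEN replicate 1, where the log2 fold change was 0.28 and the adjusted p 0.0511, and otherwise these 4 calls of STAT2 passed in all 13 other settings with no minimum fold and without any other sample. Behind the values lay 838 to 1636 reads per sample.

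The interaction term, which asks whether the effect of both drugs together departs from the sum of the effects of each on the log2 scale, passed for 0 of the 7 members. It passed for 0% of all genes tested with limma, for 1621 genes at an unadjusted p under 0.05, and for 3 genes when voom, limma's count method, was run on reads recovered from the RPKM. Without RUNXi replicate 2 it passed for 557 of 11252 genes and for 1 member, JAK1, at -0.28 with an adjusted p of 0.0350, against -0.21 and 0.325 with all samples. The comparison of RUNXi with DMSO likewise went from 512 to 1567 genes without that library.

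JAK2 was highest with both drugs. DMSO replicates were at 2.18, 2.26 and 2.18 RPKM and LEN replicates at 2.85, 2.20 and 2.72 RPKM. RUNXi replicates were at 3.04, 2.33 and 2.79 RPKM and LEN+RUNXi replicates at 3.35, 2.92 and 3.01 RPKM. All LEN+RUNXi samples were above all DMSO samples, while 1 LEN sample lay within the DMSO range and 1 RUNXi sample just above it. The log2 fold change was 0.21 ± 0.11 in LEN (adjusted p = 0.542), 0.28 ± 0.11 in RUNXi (adjusted p = 0.158) and 0.47 ± 0.11 in LEN+RUNXi (adjusted p = 0.0225, limma), or 1.40 times the mean RPKM of DMSO. LEN+RUNXi against LEN (0.25, adjusted p = 0.213) and against RUNXi (0.18, adjusted p = 0.256) did not pass, and the interaction was -0.03 (95% interval -0.36 to 0.31).

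The JAK2 call was lost in some settings and without single samples. In both single-drug conditions the lowest JAK2 value came from replicate 2, the deepest library of its group, at 30478783 reads in LEN and 29512562 in RUNXi. The shallowest DMSO library, replicate 3 with 21297486 reads, was at 2.18 RPKM. Within LEN+RUNXi the lowest JAK2 value, 2.92 RPKM, came from the shallowest library, replicate 2 with 16352548 reads. RUNXi replicate 2 was also the library farthest from its group. With the library depth added to the model, an alternative chosen after seeing the data, LEN+RUNXi was above DMSO by 0.32 with an adjusted p of 0.169. The LEN+RUNXi libraries held 16352548 to 20419807 reads and those of DMSO 21297486 to 31386210. Depth and treatment therefore cannot be told apart in this comparison. The call was also lost with quantile normalization (adjusted p = 0.0521), with every gene above 0 tested (adjusted p = 0.0596) and without any of DMSO replicates 1, 2 and 3 or LEN+RUNXi replicates 1 and 3 (adjusted p 0.0502 to 0.0896), while it passed in the other 10 settings with all samples. Without RUNXi replicate 2, JAK2 in RUNXi was above DMSO by 0.39 with an adjusted p of 0.0346. JAK2 rested on 263 to 443 reads per sample.

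**Figure D2:**
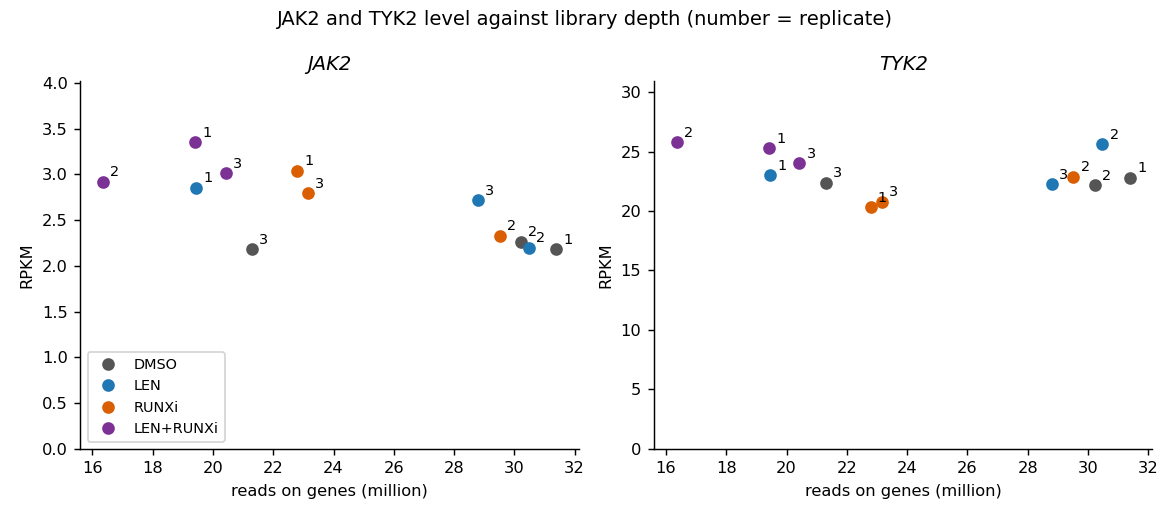
RPKM of JAK2 (left) and TYK2 (right) against the reads counted on genes, in units of 1000000, with 1 point per sample, coloured by condition and numbered by replicate. The 3 LEN+RUNXi libraries are among the shallowest and hold high values of both genes, and replicate 2 of LEN and of RUNXi is low for JAK2 and high for TYK2 within its group.

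JAK1, the kinase common to most receptors of the pathway, was higher on average in all 3 treatments without passing in any. DMSO replicates were at 29.6, 28.6 and 28.2 RPKM and LEN replicates at 33.3, 31.5 and 33.8 RPKM, with no overlap. RUNXi replicates were at 33.7, 28.8 and 33.7 RPKM and LEN+RUNXi replicates at 32.2, 32.8 and 29.6 RPKM. RUNXi replicate 2 thus lay inside the DMSO range, as it was also the lowest for JAK2. The log2 fold change was 0.19 in LEN (adjusted p = 0.225), 0.15 in RUNXi (adjusted p = 0.185) and 0.13 in LEN+RUNXi (adjusted p = 0.234). Without RUNXi replicate 2 the change in RUNXi was 0.22 and passed, with an adjusted p of 0.0137.

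TYK2, which signals for the type I interferon, interleukin-10 and interleukin-12 receptors, differed between the RUNX inhibitor with and without lenalidomide. DMSO replicates were at 22.8, 22.1 and 22.4 RPKM, LEN replicates at 23.0, 25.6 and 22.3 RPKM, RUNXi replicates at 20.3, 22.9 and 20.8 RPKM and LEN+RUNXi replicates at 25.3, 25.8 and 24.0 RPKM. All LEN+RUNXi samples were above all RUNXi samples, by 0.23 ± 0.06 on the log2 scale (adjusted p = 0.0232, limma). Against DMSO the log2 fold change was 0.07 in LEN, -0.07 in RUNXi and 0.16 in LEN+RUNXi (adjusted p of 0.765, 0.478 and 0.120). TYK2 transcripts hold 60.9% G and C, more than 90.3% of the genes tested, and when each library's values were first corrected for base composition and length of the genes, an alternative chosen after seeing the data, the difference was 0.09 with an adjusted p of 0.111. It also missed the threshold in the fit of these 2 groups alone (adjusted p = 0.0516), with every gene above 0 tested (adjusted p = 0.0527), and without RUNXi replicate 1 or 3 or LEN+RUNXi replicate 1 or 2 (adjusted p 0.0734 to 0.0977). It passed in 10 of 13 other settings with all samples and no minimum fold, and in 8 of 12 analyses without 1 sample. The fit with the library depth in the model was among the settings it passed.

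STAT3, STAT5B and STAT6 passed in none of the comparisons with all samples. STAT3, which carries interleukin-6 signals, was at 16.1, 14.7 and 13.8 RPKM in DMSO and at 16.9, 16.7 and 15.5 RPKM in LEN+RUNXi, overlapping ranges that differed by 0.14 on the log2 scale (95% interval 0.02 to 0.26, adjusted p = 0.137). Without DMSO replicate 1, the highest of its group, that difference was 0.20 with an adjusted p of 0.0327. In LEN the STAT3 difference from DMSO was 0.10 and in RUNXi 0.01. STAT5B had the narrowest range for its level among the 7, between 9.05 and 10.2 RPKM in all 12 samples, with log2 fold changes of -0.03, 0.03 and 0.03 in LEN, RUNXi and LEN+RUNXi (95% intervals -0.14 to 0.08, -0.07 to 0.14 and -0.07 to 0.14).

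STAT6, the factor of interleukin-4 and interleukin-13, ranged from 7.82 to 10.0 RPKM in DMSO, a wider spread than in any treatment. LEN replicates lay between 9.88 and 10.7 RPKM, RUNXi replicates between 8.65 and 9.27 RPKM and LEN+RUNXi replicates between 9.74 and 10.5 RPKM. Its log2 fold change was 0.17 in LEN (adjusted p = 0.449), -0.01 in RUNXi (adjusted p = 0.976) and 0.17 in LEN+RUNXi (adjusted p = 0.209). RUNXi differed from LEN by -0.18, with an adjusted p of 0.145 in all samples and of 0.0348 without DMSO replicate 3, the low STAT6 sample, whose removal changed the estimated spread and not the 2 means.

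**Figure D3:**
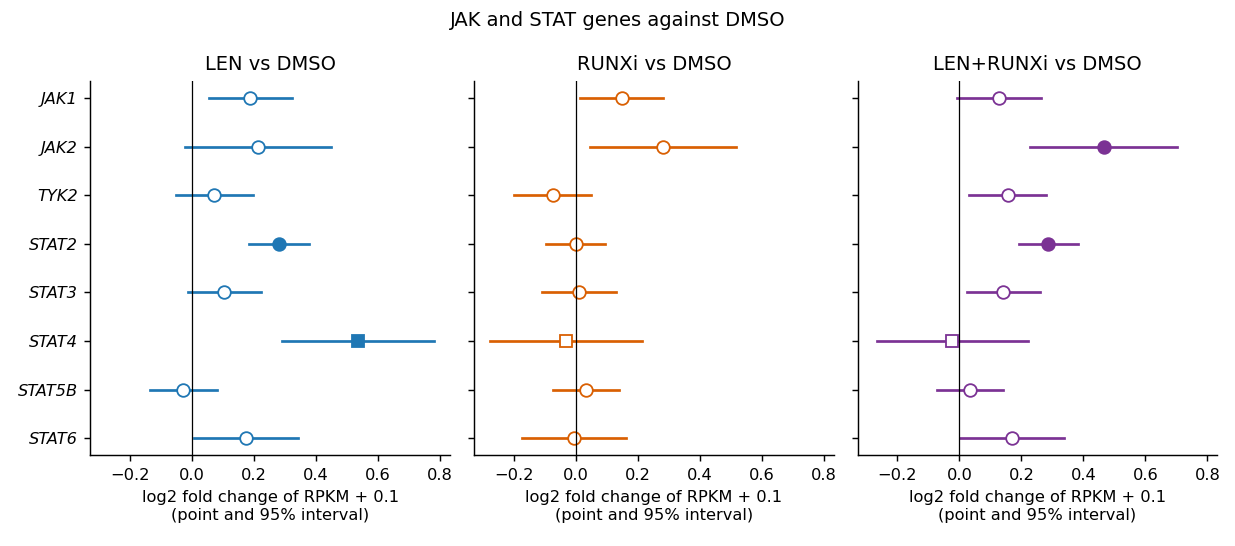
Log2 fold change of RPKM + 0.1 against DMSO for 8 members in the 3 treatments, with points for the limma estimate and lines for its 95% interval; filled symbols passed at an adjusted p of at most 0.05, and the squares of STAT4 come from the fit to genes that averaged at least 10 reads. STAT2 passes in LEN and LEN+RUNXi with nearly the same change, JAK2 passes with both drugs, and STAT4 passes with LEN alone.

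STAT4, the factor of interleukin-12, lay under the minimum level of the main test and was tested in a fit to 12816 genes that averaged at least 10 reads. It was at 0.296, 0.258 and 0.272 RPKM in DMSO and at 0.427, 0.487 and 0.419 RPKM in LEN, on 23 to 37 and 33 to 59 reads. RUNXi replicates were at 0.221, 0.281 and 0.304 RPKM and LEN+RUNXi replicates at 0.272, 0.277 and 0.259 RPKM, on 20 to 33 and 18 to 21 reads. All LEN samples were above all 9 others, and the other groups overlapped. LEN was 1.61 times DMSO in mean RPKM and above it by 0.54 ± 0.11 on the log2(RPKM + 0.1) scale (adjusted p = 0.0411, limma), where 1.08% of genes passed.

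In both conditions with the RUNX inhibitor STAT4 was near its DMSO level. LEN+RUNXi was below LEN (log2 fold change -0.56, adjusted p = 0.0154, where 4.34% of genes passed) and RUNXi was below LEN (-0.57, adjusted p = 0.00659, where 12.4% passed). LEN+RUNXi differed from DMSO by -0.02 (95% interval -0.27 to 0.22) and RUNXi by -0.03 (95% interval -0.28 to 0.21). The interaction was -0.53 ± 0.16 and missed the threshold (adjusted p = 0.279), so the difference between the effects of lenalidomide with and without RUNXi was not shown. The call in LEN against DMSO passed in 4 of 11 other settings with all samples and in 2 of 12 analyses without 1 sample, with log2 fold changes of 0.18 to 0.69 and adjusted p up to 0.193 and 0.181. LEN+RUNXi against LEN passed in 9 of 11 settings and 10 of 12 analyses, being lost without LEN replicate 2 (adjusted p = 0.0501) or LEN+RUNXi replicate 3 (adjusted p = 0.0521).

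STAT5A had almost no reads while STAT5B, its near twin in protein sequence, was among the well measured members. A single read, in RUNXi replicate 3, was counted on STAT5A in all 12 samples, equal to 0.00962 RPKM. In the 11 libraries without a read, a count of 0 allows up to 3 reads, or 0.0213 to 0.0409 RPKM, and this limit covers counting error only. STAT5A lies between STAT5B and STAT3 on chromosome 17 and shares 1087 bases with STAT5B, which runs on the opposite strand. STAT5B was at a median of 9.66 RPKM and STAT3 at 15.5 RPKM over the 12 samples. Further out, and chosen after the values were seen, GHDC was at 4.89, ATP6V0A1 at 10.3 and NAGLU at 5.11 RPKM. STAT5A was not the only neighbour with few or no reads, as HCRT had none in any sample and KCNH4 had 1 to 3 reads per sample. CAVIN1 was not found under that name. Whether the counting used strand is not given in the sources used here, nor is how reads that fit both STAT5A and STAT5B were treated.

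For the 3 members that passed in the main test, the 3 genes with the highest Pearson correlation over the 12 samples were looked up among the 11240 other genes tested, as a description of these libraries, which share their depth and composition across genes. For STAT2 these were ITM2C (0.95), FMNL3 (0.95) and TCN2 (0.95), and TCN2 had means of 24.9 RPKM in DMSO, 42.8 in LEN, 24.2 in RUNXi and 38.6 in LEN+RUNXi. For JAK2 they were NFE2L3 (0.91), SMAD3 (0.91) and MPPED2 (0.90). For TYK2 they were GIGYF1 (0.98), HMHA1 (0.97) and NUP62 (0.96). All of them were lowest in RUNXi and highest in LEN+RUNXi as TYK2 was, which follows from their choice by correlation and is no separate result.

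The other genes of the pathway were read from 5 lists of ligands, receptors, brakes, partners and STAT target genes, 101 genes of which 63 were tested. In LEN 2 were higher and 1 lower than in DMSO, in RUNXi 5 and 2, and in LEN+RUNXi 10 and 4. That is 4.76%, 11.1% and 22.2% of the 63, beside 1.13%, 4.55% and 8.64% of all genes. The lists were chosen with earlier results of these data known, and nothing particular to them is drawn from these shares.

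Of the receptors that bind Janus kinases, 15 of 30 were tested. Against DMSO 2 were higher in LEN, 4 were higher and 1 lower in RUNXi, and 6 were higher and 1 lower in LEN+RUNXi. Of all genes, 1.13%, 4.55% and 8.64% passed in these comparisons. The list was chosen with earlier results known, and nothing particular to receptors is drawn from these counts. The receptors' median log2 fold change was 0.07 in LEN, 0.09 in RUNXi and 0.13 in LEN+RUNXi. Over all genes tested the medians were -0.00, 0.01 and 0.02. IL2RG, the gamma chain shared by receptors of interleukin-2, interleukin-4 and several more cytokines, was the highest of the list at 148 ± 0.849 RPKM in DMSO and rose to 198 ± 5.88 RPKM in LEN, 177 ± 12.7 RPKM in RUNXi and 219 ± 2.62 RPKM in LEN+RUNXi (log2 fold changes of 0.42, 0.26 and 0.57, adjusted p of 0.000915, 0.00873 and 1.66e-05), and its call in RUNXi was lost in the fit of the compared groups alone (adjusted p = 0.0703). IL6R, the interleukin-6 receptor, rose with the RUNX inhibitor, by 0.46 in RUNXi and 0.40 in LEN+RUNXi (adjusted p of 0.000656 and 0.00113), and in LEN its change was 0.15 (adjusted p = 0.289). IL10RB, a chain of the interleukin-10 and interferon-λ receptors, rose by 0.21 in RUNXi and 0.31 in LEN+RUNXi (adjusted p of 0.0215 and 0.00137). Its call in RUNXi was lost in the fit of the compared groups alone (adjusted p = 0.0991) and without DMSO replicate 1 or 2 or RUNXi replicate 1 or 3 (adjusted p up to 0.0949).

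IL10RA, the ligand-binding chain for interleukin-10, moved in opposite directions with the 2 drugs. It was at 6.52, 6.40 and 6.23 RPKM in DMSO, at 7.59, 8.23 and 8.21 RPKM in LEN, at 4.22, 4.79 and 4.52 RPKM in RUNXi and at 5.20, 5.70 and 5.38 RPKM in LEN+RUNXi, with no overlap between any of the 4 groups. The log2 fold change against DMSO was 0.32 in LEN (adjusted p = 0.0179), -0.49 in RUNXi (adjusted p = 0.000477) and -0.23 in LEN+RUNXi (adjusted p = 0.0271). The last call was lost with the library depth in the model (adjusted p = 0.189), with every gene above 0 tested, and without any DMSO replicate or LEN+RUNXi replicate 1 or 3 (adjusted p up to 0.103), and the call in LEN was lost without DMSO replicate 2 or 3 or LEN replicate 2 or 3 (adjusted p up to 0.0886).

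Of 18 cytokine ligands 4 were tested, and none passed against DMSO. Oncostatin M (OSM), the highest, was at 1.74 ± 0.160 RPKM in DMSO and 1.69 ± 0.0982 RPKM in LEN+RUNXi. Of 21 brakes, which include the SOCS proteins, PIAS proteins and phosphatases, 16 were tested. Against DMSO 2 were higher in LEN+RUNXi, where 8.64% of all genes passed, and none passed elsewhere. The 2 brakes were SH2B3, an adaptor that restrains JAK2 signalling (0.20, adjusted p = 0.0195), and PIAS4 (0.18, adjusted p = 0.0304). The SH2B3 call was lost with quantile normalization, in the fit of the compared groups alone and with the library depth in the model (adjusted p up to 0.115), and without DMSO replicate 2 or LEN+RUNXi replicate 1 or 2 (adjusted p up to 0.0839). The PIAS4 call was lost with every gene above 0 tested, after median-ratio rescaling, with quantile normalization and in the compared groups alone (adjusted p up to 0.0587), and without DMSO replicate 2 or 3 or any LEN+RUNXi replicate (adjusted p up to 0.111).

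Between the treatments 3 brakes passed, named here after their values were seen. LEN+RUNXi against RUNXi had 2 higher and 1 lower of the 16 tested, where 15.0% of all genes passed. RUNXi against LEN had 1 higher and 1 lower, where 13.8% of all genes passed. Nothing particular to the brakes is drawn from these counts. SOCS3, a feedback inhibitor induced by STAT3, was higher in LEN+RUNXi than in RUNXi by 0.51 (adjusted p = 0.0205) and lower in RUNXi than in LEN (log2 fold change -0.51, adjusted p = 0.0200). PTPN2, a phosphatase of Janus kinases and STAT factors, did the opposite, with -0.17 (adjusted p = 0.0353) and 0.19 (adjusted p = 0.0203). PIAS4 was higher in LEN+RUNXi than in RUNXi by 0.23 (adjusted p = 0.0106). Each of these calls was lost in at least 1 other setting and without at least 1 sample, RUNXi replicate 3 among them for SOCS3 and PTPN2 and RUNXi replicate 1 for PIAS4, with adjusted p up to 0.197 in other settings and 0.134 without 1 sample. Against DMSO, SOCS3 was at log2 fold changes of 0.31, -0.21 and 0.31 in LEN, RUNXi and LEN+RUNXi without passing (adjusted p of 0.371, 0.359 and 0.152).

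PTPN6, the phosphatase SHP-1, was the most abundant brake at 50.9 ± 3.35 RPKM in DMSO and did not pass, with a change of 0.13 in LEN+RUNXi. All 12 partners were tested, and against DMSO a single one passed, in LEN+RUNXi, where 8.64% of all genes passed. This was NMI, a protein that binds STAT factors. It rose from 1.10 ± 0.0749 RPKM in DMSO to 1.98 ± 0.0659 RPKM in LEN+RUNXi (log2 fold change 0.79, adjusted p = 0.00326), and was at 1.50 ± 0.248 RPKM in LEN (0.40, adjusted p = 0.202). Between the treatments further partners passed, named here after their values were seen. IRF9 was higher in LEN+RUNXi than in RUNXi by 0.35 (adjusted p = 0.0130) and lower in RUNXi than in LEN (log2 fold change -0.30, adjusted p = 0.0225). Against DMSO, IRF9 was at 0.17, -0.13 and 0.22 in LEN, RUNXi and LEN+RUNXi without passing (adjusted p of 0.429, 0.336 and 0.0872). NMI was also higher and STAM lower in LEN+RUNXi than in RUNXi, where 15.0% of all genes passed. KPNA1 was higher and CREBBP lower in RUNXi than in LEN, where 13.8% of all genes passed. Other settings are not given for these calls of partners between treatments.

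Of 20 textbook target genes of STAT3, STAT5 and STAT6, 16 were tested. Against DMSO 1 was lower in LEN, 1 higher and 1 lower in RUNXi, and 1 higher and 3 lower in LEN+RUNXi. Of all genes, 1.13%, 4.55% and 8.64% passed in these comparisons, and nothing particular to the targets is drawn from the counts. The targets' median log2 fold change was 0.01, 0.05 and 0.03 in the 3 treatments, beside -0.00, 0.01 and 0.02 over all genes tested. ID1, which blocks DNA binding by helix-loop-helix factors and is also a target of BMP signals, fell from 29.9 ± 1.73 RPKM in DMSO to 19.3 ± 0.364 RPKM in LEN, 15.5 ± 2.14 RPKM in RUNXi and 11.1 ± 0.474 RPKM in LEN+RUNXi, with log2 fold changes of -0.63, -0.95 and -1.42 (adjusted p of 0.00290, 4.45e-05 and 1.05e-06). BCL2, which keeps cells from apoptosis, rose by 0.29 in LEN+RUNXi (adjusted p = 0.0122), a call lost with the library depth in the model (adjusted p = 0.105) and without DMSO replicate 2 or LEN+RUNXi replicate 1 (adjusted p up to 0.0528). VEGFA, an angiogenic growth factor, fell by 0.19 in LEN+RUNXi (log2 fold change -0.19, adjusted p = 0.0191), a call lost with the library depth in the model (adjusted p = 0.0863) and without DMSO replicate 1 or 3 or LEN+RUNXi replicate 1 or 3 (adjusted p up to 0.0701). PIM2, a survival kinase, rose by 0.19 in RUNXi (adjusted p = 0.0344), a call lost with every gene above 0 tested, in the compared groups alone and with no variance trend (adjusted p up to 0.105), and without any of 7 samples, the 3 DMSO replicates included (adjusted p up to 0.132). CCND2, cyclin D2, was the most abundant of the list at 452 ± 12.9 RPKM in DMSO and did not pass against DMSO.

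**Figure D4:**
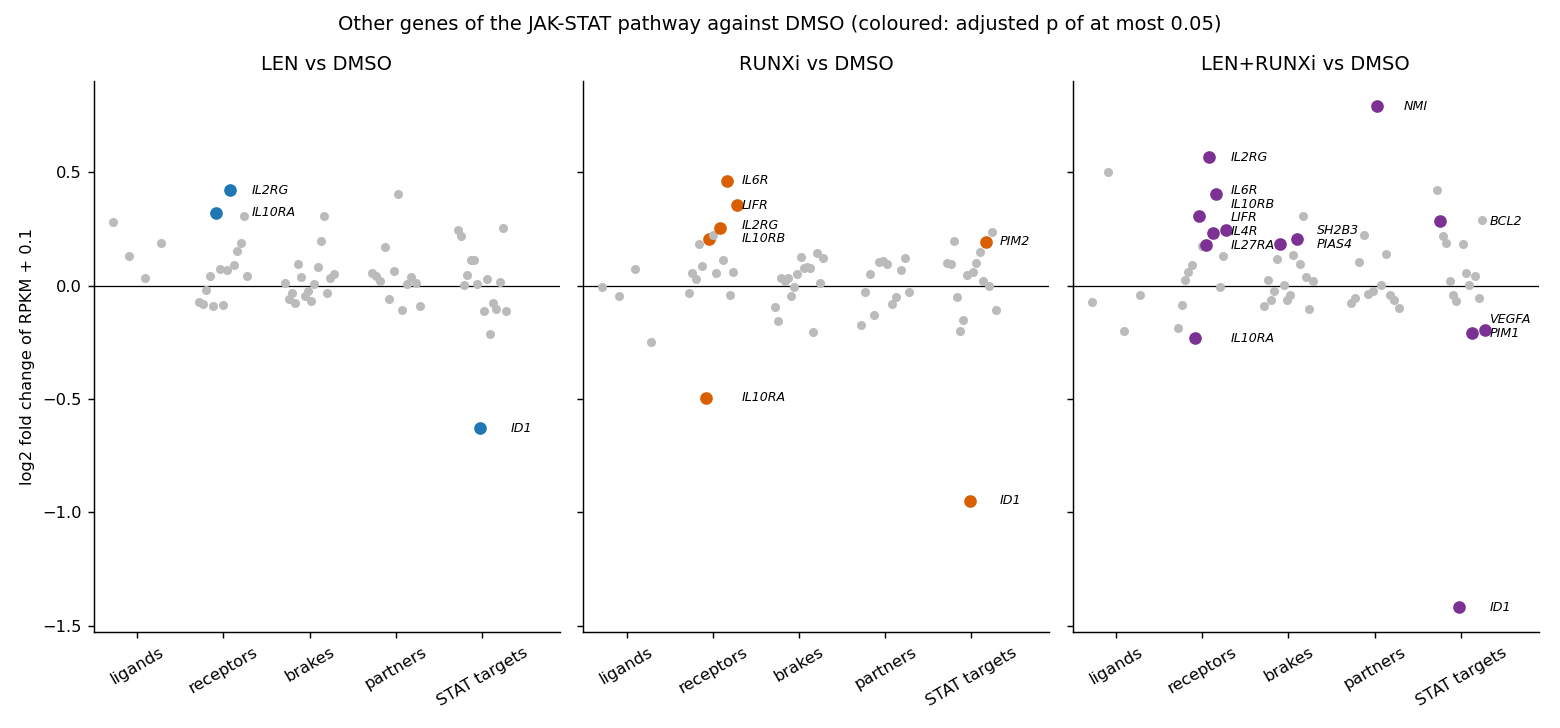
Log2 fold change of RPKM + 0.1 against DMSO for the 63 tested genes of the 5 pathway lists, 1 panel per treatment and 1 point per gene; coloured points with names passed at an adjusted p of at most 0.05 and grey points did not. IL2RG is up in all 3 panels, ID1 is down in all 3, and IL10RA is up in LEN and down in RUNXi and LEN+RUNXi.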

How the data were processed

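Poly(A) RNA of OPM-1 cells was sequenced from directional libraries. STAR and GRCh38 were used for mapping, and the authors deposited RPKM, read counts scaled by gene length and by the 1000000 reads on genes that serve as unit, together with those lengths. The plan had named the unit FPKM. Values were whole reads in 100% of cases (tolerance 0.05 reads), so reads could be recovered. Samples were grouped by their labels, and depth ran from 16352548 to 31386210 reads.

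All genes averaging at least 0.5 RPKM entered limma 3.58.1 (R 4.3.3) as log2(RPKM + 0.1) in a model of 4 group means with a variance trend, and p-values were adjusted by Benjamini-Hochberg. On simulated data with LEN against DMSO changed, 84 of 108 genes changed by 0.5 on the log2 scale and 88 of 92 changed by 1 were recovered among 11245 genes. Of 11045 unchanged genes 9 were called. The simulation gave every gene the same dispersion and held no outlying library, so it checks the code and does not give the power for the members. Figures used matplotlib 3.10.9.

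Members, lists and tests were chosen with earlier results of these data known. Named were the 9 members and, per list, up to 4 genes with the smallest p among those passing against DMSO and the gene with the highest level. Neighbours of STAT5A fall outside this rule, as do the brakes and partners named for a comparison between treatments. Other members of both families are not reported here. In the main fit p-values rest on the spread within groups of 3 biological replicates, pooled over all 4 groups. Each gene's spread is also drawn towards limma's variance trend over the genes tested. Limits from read numbers cover counting error only. Alternatives were other pseudocounts, filters and scalings, a fit to the compared groups, a replicate block, no variance trend, voom, a minimum fold, leaving out each sample and, added after seeing the data, depth and GC corrections. No sample was left out.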

Additional observations from a re-analysis of the deposited data

How the results depend on the processing

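Counts of members that passed changed with few settings. Among genes that averaged at least 10 reads STAT4 came in, so that 2 members were higher in LEN than in DMSO, 1 was lower in LEN+RUNXi than in LEN and 2 were lower in RUNXi than in LEN, the last also with every gene above 0 tested (2). Higher in LEN+RUNXi than in DMSO was 1 member with every gene above 0 tested, 1 with quantile normalization and 1 with the library depth in the model, in each case STAT2, and 1 with the minimum fold, JAK2. Higher in LEN+RUNXi than in RUNXi was 1 member with every gene above 0 tested, 1 in the compared groups only and 1 after the GC and length correction, in each case STAT2. With the minimum fold 0 members passed in LEN against DMSO, in LEN+RUNXi against RUNXi and in RUNXi against LEN. The depth and GC settings were chosen after seeing the data, and for these changes the cause was not tested.

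Leaving out each sample in turn gave 0 to 1 members higher in LEN than in DMSO, 0 to 2 in RUNXi (2 without RUNXi replicate 2, JAK1 and JAK2) and 1 to 2 in LEN+RUNXi. It gave 1 to 3 higher in LEN+RUNXi than in RUNXi (3 without DMSO replicate 3, STAT6 being added), 1 to 2 lower in RUNXi than in LEN (2 without DMSO replicate 3, STAT6 being added, or RUNXi replicate 2, TYK2 being added at -0.20) and 0 to 1 with a negative interaction. Without DMSO replicate 1, STAT3 took the place of JAK2 in LEN+RUNXi. Many genes passed in these fits. Without DMSO replicate 3, 1022 genes were higher and 649 lower of 11253 in LEN+RUNXi against RUNXi, and 760 and 762 in RUNXi against LEN. Without RUNXi replicate 2, 2281 of 11252 genes passed in RUNXi against LEN and 1567 in RUNXi against DMSO. Without DMSO replicate 1, 563 were higher and 288 lower of 11246 in LEN+RUNXi against DMSO.

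Only values near 0 changed sign. The JAK2 interaction was 0.0082 with voom and 0.054 after the GC and length correction, and -0.14 to 0.053 without 1 sample. For STAT2, RUNXi against DMSO was 0.0041 with the library depth in the model and -0.040 to 0.022 without 1 sample. LEN+RUNXi against LEN was -0.018 for STAT2 with median-ratio rescaling, -0.018 with quantile normalization and -0.014 after the GC and length correction, and -0.018 to 0.042 without 1 sample. The STAT2 interaction was -0.0090, -0.0035 and -0.010 in the same 3 settings, and -0.018 to 0.047 without 1 sample. STAT5B in LEN+RUNXi against DMSO was -0.012 with the depth and -0.0021 with the GC and length correction. STAT6 in RUNXi against DMSO was 0.0086 and 0.025 in these settings, and -0.11 to 0.065 without 1 sample. STAT3 in RUNXi against DMSO ran from -0.043 to 0.069 without 1 sample. STAT4 against DMSO was 0.032 in LEN+RUNXi with the depth, and without 1 sample -0.057 to 0.017 in LEN+RUNXi and -0.10 to 0.066 in RUNXi.

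Same-numbered samples deviated together weakly, with a mean correlation of 0.05 over 18 pairs, the lowest at -0.03, although 12 of 12 samples correlated best with their own number, a hint from the data and not from the design. With a replicate block, all calls of the 7 tested members were as without it (STAT2 in LEN against DMSO at 0.28, adjusted p = 0.0135), STAT4 in LEN against DMSO had an adjusted p of 0.0542, and the genes passing against DMSO went from 127 to 167 in LEN, from 512 to 666 in RUNXi and from 971 to 1187 in LEN+RUNXi. Over all genes, median-ratio rescaling turned 634 higher and 337 lower genes in LEN+RUNXi against DMSO into 464 and 548, 279 and 240 against LEN into 198 and 375, and 1026 and 657 against RUNXi into 847 and 972. STAT4, with 18 to 59 reads per sample, was poorly measured, and with 1 read in all no change of STAT5A can be judged.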
